A study of Arabidopsis thaliana with 5 samples.

Results

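*LEC1* (AT1G21970), *L1L* (AT5G47670), *ABI3* (AT3G24650), *FUS3* (AT3G26790), *LEC2* (AT1G28300) and *WRI1* (AT3G54320) are transcriptional regulators of seed maturation, and their total expression was followed in endosperm nuclei of reciprocal crosses between the *Arabidopsis* accessions Columbia (Col) and Landsberg (L*er*). They were chosen by gene identifier, as 6 of the 33602 rows of the expression table, and all 6 passed the filter on low values. The RNA came from 2 Col × L*er* and 3 L*er* × Col libraries at 4 days after pollination (DAP), the mother being written first. For Col × L*er*, the INT line in the Columbia background, carrying *dde2*, was pollinated with L*er*, and for L*er* × Col, *pistillata* mutants in L*er* received INT pollen. The sample titles call the parents wild type. The INT line carries a nuclear envelope tag and a biotin ligase, both under the *PHE1* promoter, so that labelled nuclei can be captured on streptavidin beads (INTACT). The tag was thus inherited from the mother in Col × L*er* and from the father in L*er* × Col, and the mutant background of the mother differed too. These differences and the direction of the cross cannot be told apart in this design. The libraries are numbered as in the table, which gives Col × L*er* the numbers 2 and 3 and L*er* × Col the numbers 1, 2 and 3, whereas by sample title the Col × L*er* libraries are replicates 1 and 2. According to the methods, first replicates came from more silique tissue and, after an estimate of contamination from parental read ratios, were set aside in later steps, although a merge of all L*er* × Col replicates is described too. Values are therefore given with and without replicate 1 of L*er* × Col. The libraries come from whole captured populations, in which fewer expressing nuclei and less RNA per nucleus cannot be told apart.

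LEC1 is the NF-YB subunit of a CCAAT-binding trimer in which the NF-YA subunit reads the DNA and NF-YB and NF-YC form a histone-like pair. L1L is its closest relative. ABI3, FUS3 and LEC2, together called AFL, carry a B3 domain that binds the RY element, and switch on genes of storage proteins, oil bodies and desiccation protectants. WRI1 is an AP2-type factor that switches on glycolysis and fatty acid synthesis in plastids. LEC1, LEC2 and FUS3 are best known from the embryo, and *LEC1* and *WRI1* are transcribed in the endosperm as well. After germination, the B3-domain VAL proteins and Polycomb complexes keep the maturation genes silent.

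The upstream sequences of *LEC1* and *FUS3* are shown because these genes lay apart between the crosses and their upstream 250 bases hold the letters of the NF-Y box or of the RY element. The windows end at the base before the annotated gene start, read 5′ to 3′ on the strand of the gene, and come from RefSeq's TAIR10.1 assembly. *LEC1* lies on the minus strand at chr1:7727577-7729649, with its window at chr1:7729650-7729899. *FUS3* lies on the minus strand at chr3:9853828-9856212, with its window at chr3:9856213-9856462. Capitals mark CCAAT, the letters of the NF-Y box, or CATGCA, the letters of the RY element, each searched on both strands.
LEC1: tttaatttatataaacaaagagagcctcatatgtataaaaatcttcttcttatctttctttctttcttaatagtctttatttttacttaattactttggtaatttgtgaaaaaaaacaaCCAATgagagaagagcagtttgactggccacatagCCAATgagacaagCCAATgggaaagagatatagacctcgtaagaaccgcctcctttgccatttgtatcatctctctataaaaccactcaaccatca
FUS3: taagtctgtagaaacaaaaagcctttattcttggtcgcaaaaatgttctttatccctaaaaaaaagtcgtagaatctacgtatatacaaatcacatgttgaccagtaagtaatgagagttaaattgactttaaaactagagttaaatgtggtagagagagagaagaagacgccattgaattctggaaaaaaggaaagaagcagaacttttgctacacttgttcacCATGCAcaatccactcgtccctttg
CCAAT occurred 3 times upstream of *LEC1*, with first letters 131, 96 and 83 bases before the gene start. At least 3 matches were present in 3.2% of 26711 upstream windows of protein-coding genes, and at least 1 in 46.1%. CATGCA occurred once upstream of *FUS3*, 25 bases before the start, and in 8.51% of all windows. CACGTG, the G-box read by bZIP factors, was present in 6.58% of all windows and in none of the 6. The windows of *L1L*, *ABI3*, *LEC2* and *WRI1* held none of these letters. A match describes the letters only.

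From the steps of low tRNA values the libraries held between about 12550000 and 28510000 reads, and between 647 and 12393 rows were listed at 0. Median RPKM (a read count divided by gene length and library depth) was 1.91 and 4.47 in Col × L*er* and 8.96, 0.952 and 3.40 in L*er* × Col, so that the 2 libraries numbered replicate 2 stood apart by their many rows at 0 and low medians. The *PHE1* gene was measured at 29.7 to 51 RPKM in all libraries. The 13 endosperm markers summed to 656 to 912 RPKM, of which *ZOU*, an endosperm bHLH factor, made up 190 to 777 RPKM. The other 12 summed to 261 and 467 RPKM in Col × L*er* and to 270, 135 and 374 RPKM in L*er* × Col, with *AGL36* at 0 in both replicate 2 libraries and *IKU2* at 0 in replicate 2 of L*er* × Col. The 9 embryo markers summed to 157 RPKM in replicate 1 of L*er* × Col and to 4.7 to 31.8 RPKM elsewhere, and 8 of the 9 were highest in that library. *STM* was at 0 in replicate 2 of Col × L*er*, and *WOX2* and *CUC1* were at 0 in replicate 2 of L*er* × Col. The 15 seed coat markers summed to 173 and 164 RPKM in the replicate 2 libraries and to 373 to 428 RPKM in the others. Of these, *MUM4* made up 76.2 and 120 RPKM in the replicate 2 libraries and 38.4 to 66.5 RPKM in the others. *TT16* was at 0 in both replicate 2 libraries, and *TT2* and *TTG2* in that of Col × L*er*.

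*WRI1* was the most abundant of the regulators in every library and *ABI3* the least abundant on average. Per length, the order of mean log2(RPKM + 1) was *WRI1* at 8.88, *LEC1* at 5.42, *LEC2* at 4.21, *FUS3* at 3.07, *L1L* at 2.78 and *ABI3* at 1.74. *WRI1* exceeded *LEC1* by 3.46 ± 2.09 log2 units (SD, n = 5), *LEC1* exceeded *LEC2* by 1.21 ± 0.86, and *LEC2* exceeded *FUS3* by 1.14 ± 0.95, each in 5 of 5 libraries. For each of these pairs the two-sided exact sign-flip permutation test over libraries gave p = 0.0625, the smallest value that 5 libraries allow, and 0.104 after adjustment over the 5 neighbouring pairs. The pairs and their direction were taken from the order in these same libraries, so the p-values are no independent test of that order. *FUS3* and *L1L* did not differ beyond their spread (0.29 ± 0.99, higher in 2 of 5 libraries, exact p = 0.5, adjusted p = 0.5). *L1L* exceeded *ABI3* by 1.04 ± 1.07 in 4 of 5 libraries (exact p = 0.1875, adjusted p = 0.234).

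**Figure D1:**
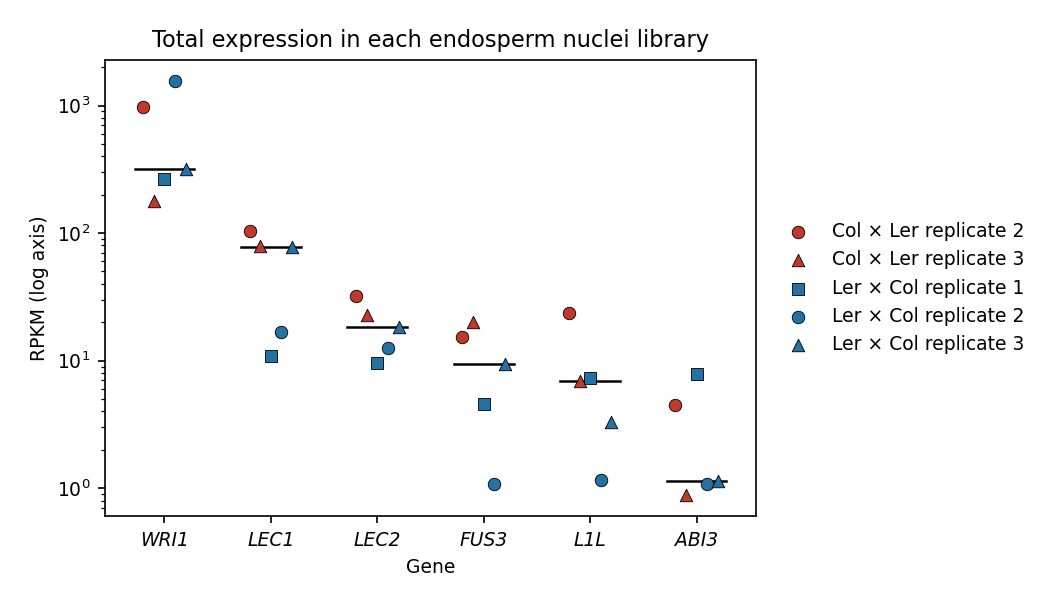
RPKM on a log axis for each regulator; each point is 1 library, red for Col × L*er* and blue for L*er* × Col, with the shape giving the replicate number and the bar the median of the 5 libraries. *WRI1* lies highest, with its replicate 2 libraries above the others at 969 and 1564 RPKM, whereas the red points of *LEC1*, *LEC2* and *FUS3* lie above all blue ones.

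The reciprocal crosses ask whether expression depends on which accession is the mother. *LEC1*, *FUS3* and *LEC2* were higher in both Col × L*er* libraries than in any L*er* × Col library, but no regulator passed the test between the crosses. Values were compared by limma on log2(RPKM + 1), in which the added 1 shrinks differences of weakly expressed genes, and log2 differences are Col × L*er* minus L*er* × Col. Benjamini-Hochberg adjusted p-values of limma below 0.05 were obtained for 0 of the 6 and for 0.00782% of the 25579 genes tested (2 genes). An unadjusted p below 0.05 was obtained for 1 of the 6, *LEC1*, and for 1.04% of all genes. The crosses did not overlap, with Col × L*er* higher, for 3 of the 6 and for 6.17% of all genes, and with Col × L*er* lower for 0 of the 6 and 1.92% of all genes. The median log2 difference was 1.35 over the 6 regulators and 0.10 over all genes tested, of which 54.8% were above 0. Without replicate 1 of L*er* × Col the log2 differences were 1.29 for *LEC1*, 2.19 for *L1L*, 2.00 for *FUS3*, 0.78 for *LEC2*, 0.61 for *ABI3* and -0.77 for *WRI1*, with 0 of the 6 called. Which regulators lay apart depended on the scaling: with median-of-ratios scaling it was *FUS3* alone (5.39% of all genes), and with ranks within libraries, as in quantile normalization, *LEC1*, *L1L* and *FUS3* (8.46%). *FUS3* was the member that stayed apart under each of these scalings.

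**Figure D2:**
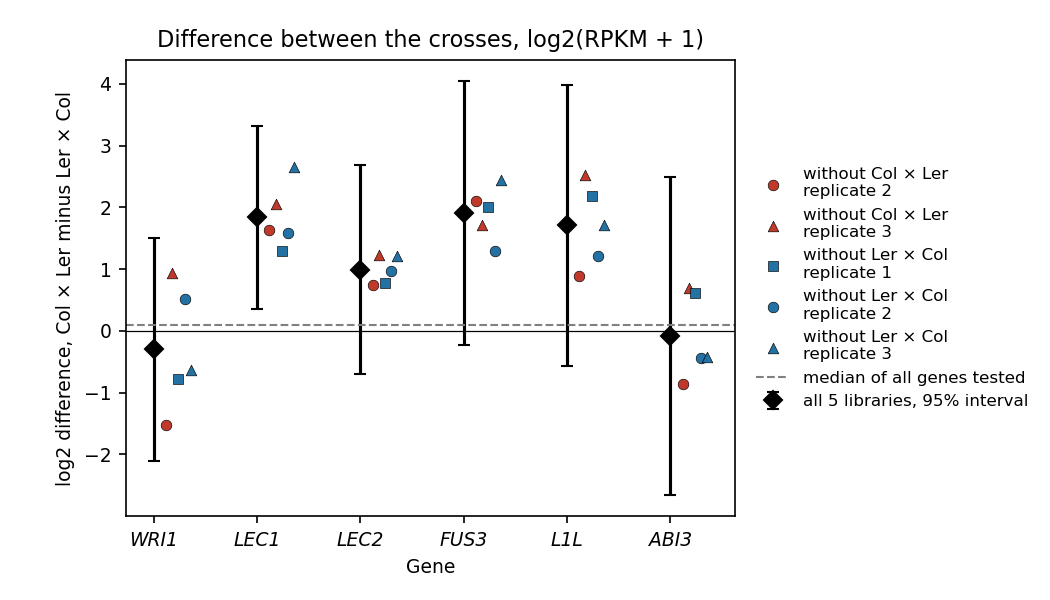
The log2 difference between the crosses for each regulator. Diamonds with bars are limma estimates from all 5 libraries with 95% intervals, coloured points are estimates without the named library, and the dashed line is the median of all genes tested, 0.10; *LEC1*, *FUS3*, *L1L* and *LEC2* lie above that line with each library left out, whereas *ABI3* and *WRI1* fall on both sides of 0.

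*LEC1* was measured at 105 and 78.8 RPKM in the Col × L*er* libraries (replicates 2 and 3) and at 10.9, 16.8 and 78.3 RPKM in the L*er* × Col libraries (replicates 1, 2 and 3). Replicate 3 of L*er* × Col was thus almost level with the lower Col × L*er* library, and the other L*er* × Col libraries were far below. Means were 91.8 ± 18.4 (SD, n = 2) and 35.3 ± 37.3 RPKM (SD, n = 3). The log2 difference was 1.84 (SE 0.75, 95% interval 0.36 to 3.32, limma adjusted p = 1), above that of 99.2% of genes tested. Between the libraries numbered 2 it was 2.57, and between those numbered 3 it was 0.01. The medians of these same-number differences over all genes tested were 0.66 and 0.12. Without replicate 3 of L*er* × Col, *LEC1* passed the test with a log2 difference of 2.66 (limma adjusted p = 0.0112), in a fit that called 86 genes (0.343%). That fit leaves out the L*er* × Col library almost level with Col × L*er*. It keeps replicate 1 of L*er* × Col, although the methods describe first replicates as set aside. Without replicate 1 instead, the log2 difference was 1.29 and *LEC1* did not pass. *LEC1* ranked within the top 3.07 to 9.77% of rows in 4 libraries, but 42.8% of rows lay above it in replicate 1 of L*er* × Col, the library with the highest embryo marker sum and the highest median of all rows. The part of these library differences in the *LEC1* values was not tested.

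*L1L* was measured at 23.7 and 6.91 RPKM in Col × L*er* and at 7.37, 1.16 and 3.33 RPKM in replicates 1, 2 and 3 of L*er* × Col. The crosses overlapped, and the highest value, in replicate 2 of Col × L*er*, was 20.5 times the lowest, in replicate 2 of L*er* × Col. The log2 difference was 1.71 (SE 1.16, 95% interval -0.56 to 3.98, limma adjusted p = 1). It was 3.52 between the libraries numbered 2 and 0.87 between those numbered 3, and moved from 0.89 without replicate 2 to 2.53 without replicate 3 of Col × L*er*. *LEC1* exceeded *L1L* in every library, by a factor of 1.48 in replicate 1 of L*er* × Col and of 4.42 to 23.5 in the others. The exons of *L1L* (chr5:19314778-19316169, plus strand, TAIR10.1) share 116 bases with AT5G47660 on the same strand and 124 bases with *TRM10* (AT5G47680) on the opposite strand, 8.33 and 8.91% of their length. *TRM10* was measured at 226 and 86.3 RPKM in Col × L*er* and at 125, 540 and 94.4 RPKM in L*er* × Col, and AT5G47660 at 38.4 to 68.9 RPKM. Whether the counting used strand is not given in the sources used here, so the low *L1L* values are uncertain by reads of these genes.

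The partners of the NF-Y trimer were tested as a list of 11 *NF-YA* and *NF-YC* genes. None passed the test, and 0 lay apart between the crosses (6.17% of all genes with Col × L*er* higher and 1.92% with it lower). Their median log2 difference was 0.50, with 8 of 11 above 0 (54.8% of all genes), and 0.05 without replicate 2 of L*er* × Col. With quantile normalization the median was 0.11 for the list and 0.02 for all genes. *NF-YC2*, the most abundant, was measured at 1016 and 710 RPKM in Col × L*er* and at 195, 321 and 850 RPKM in L*er* × Col. Its values followed the library order of *LEC1* except that replicate 3 of L*er* × Col exceeded replicate 3 of Col × L*er*, and the ratio of *NF-YC2* to *LEC1* stayed between 9.01 and 19.1 while *LEC1* itself varied 9.6-fold. *NF-YA1*, the most abundant DNA-reading subunit of the list, was measured at 36 to 172 RPKM. *NF-YA6*, the lowest of the list by mean, was at 17.3 RPKM in replicate 1 of L*er* × Col and at 0.595 to 4.88 RPKM elsewhere.

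*FUS3* was measured at 15.2 and 20.3 RPKM in Col × L*er* and at 4.56, 1.07 and 9.37 RPKM in replicates 1, 2 and 3 of L*er* × Col. The crosses did not overlap, and the lowest value rests on about 35 reads estimated from exon length. Means were 17.7 ± 3.59 (SD, n = 2) and 5 ± 4.17 RPKM (SD, n = 3). The log2 difference, 1.91, was the largest of the 6 (SE 1.09, 95% interval -0.22 to 4.05, limma adjusted p = 1), and it was 2.97 between the libraries numbered 2 and 1.04 between those numbered 3. The estimate stayed between 1.26 and 2.45 over 15 alternatives.

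*LEC2* (chr1:9896867-9899876, minus strand) was measured at 32 and 22.6 RPKM in Col × L*er* and at 9.53, 12.6 and 18.4 RPKM in L*er* × Col. It had the narrowest range of the regulators, 3.35-fold, and the crosses did not overlap. The log2 difference was 0.99 (SE 0.86, 95% interval -0.70 to 2.68, limma adjusted p = 1). It was 1.28 between the libraries numbered 2 and 0.29 between those numbered 3, where all genes tested had medians of 0.66 and 0.12.

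*ABI3* (chr3:8997370-9001185, plus strand) was measured at 4.51 and 0.881 RPKM in Col × L*er* and at 7.91, 1.07 and 1.15 RPKM in L*er* × Col. The highest value was in replicate 1 of L*er* × Col and the next in replicate 2 of Col × L*er*, while the other 3 libraries lay close together. The log2 difference of -0.08 had a 95% interval of -2.66 to 2.49 (SE 1.31, limma adjusted p = 1), and its sign turned without replicate 3 of Col × L*er* (0.69) or without replicate 1 of L*er* × Col (0.61). The ratio of *FUS3* to *ABI3* was 0.577 in replicate 1 of L*er* × Col, 0.999 in replicate 2 of that cross, and 3.37 to 23 in the others. The embryo markers summed to 157 RPKM where *ABI3* was highest. The median of all rows was also highest in that library, 8.96 RPKM, and 54.2% of rows lay above *ABI3*. This share was smaller in the replicate 2 libraries, 40.6% for Col × L*er* and 48.6% for L*er* × Col. In the replicate 3 libraries it was larger, 74.8 and 63.2%. The part of the embryo markers or of the high median in the *ABI3* value was not tested.

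Factors that act with the AFL and LEC1 proteins were tested as a list of 12 genes. None passed the test, and 2 lay apart with Col × L*er* higher, against 6.17% of all genes. The median log2 difference was 0.51, and 10 of 12 were above 0, against 54.8% of all genes. With quantile normalization the median was 0.14 for the list and 0.02 for all genes. *MYB118*, an endosperm regulator of maturation genes, was measured at 275 and 208 RPKM in Col × L*er* and at 74.5, 120 and 319 RPKM in L*er* × Col. *BZIP53*, a bZIP activator of seed storage genes, was measured at 39.4 to 108 RPKM, and *ABI5*, an abscisic acid response factor, at 0.973 to 5.33 RPKM. Among 13 repressors of the maturation program none passed the test, and the median log2 difference of 0.10 equalled that of all genes. *RING1A*, a Polycomb ubiquitin ligase subunit, was measured at 499 and 241 RPKM in Col × L*er* and at 332, 1105 and 249 RPKM in L*er* × Col. *VAL1*, a B3-domain repressor, was measured at 478 and 232 RPKM and at 236, 777 and 312 RPKM. Both were highest in the replicate 2 libraries, as *WRI1* was. *BMI1B*, the lowest of the list, was measured at 2.05 to 10.3 RPKM.

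The storage protein, oleosin and late embryogenesis genes that the AFL factors activate were high in a single library. The 14 genes summed to 2380 RPKM in replicate 2 of Col × L*er*, 164 RPKM in replicate 1 of L*er* × Col and 23.1 to 49.7 RPKM in the others, and 13 of 14 were highest in replicate 2 of Col × L*er*. *SESA3*, a napin-type storage protein, was measured at 542 and 2.94 RPKM in Col × L*er* and at 22.6, 15.8 and 0.547 RPKM in L*er* × Col. *EM6*, a late embryogenesis abundant protein, was measured at 373 and 3.14 RPKM and at 9.23, 8.87 and 8.67 RPKM. *FAE1*, a fatty acid elongase and the lowest of the list, reached 4.63 RPKM in replicate 1 of L*er* × Col and was at 0 in both replicate 2 libraries. Of the 13 genes tested none passed the adjusted threshold of limma, and 8 had an unadjusted p below 0.05 (1.04% of all genes). Between the crosses 0 lay apart (6.17% of all genes with Col × L*er* higher and 1.92% with it lower). Their median log2 difference was 2.35 and became -0.65 without replicate 2 of Col × L*er*, and 5.23 without replicate 3 of Col × L*er*. In the library where these genes were highest, *L1L* was also at its highest, *ABI3* was second and *LEC1* and *LEC2* were highest, whereas *FUS3* was lower than in replicate 3 of the same cross.

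**Figure D3:**
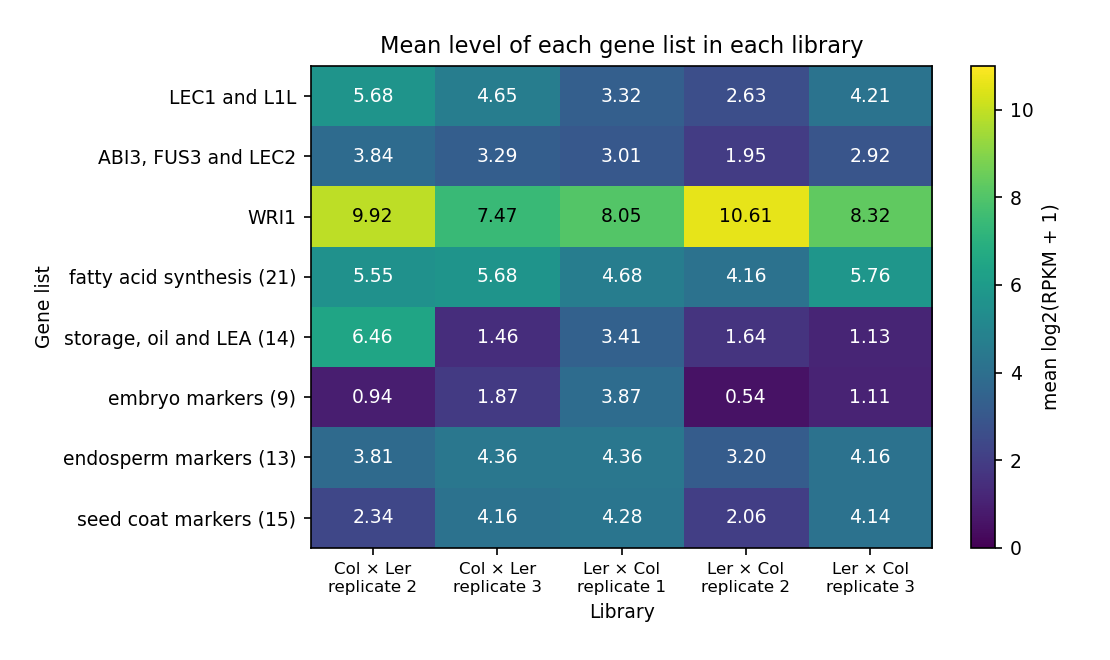
Mean log2(RPKM + 1) of the regulators and of gene lists (rows, number of genes in brackets) in each library (columns), given by colour and printed in each cell. The storage, oil and late embryogenesis (LEA) genes reached 6.46 in replicate 2 of Col × L*er* and 1.13 to 3.41 elsewhere, and the embryo markers 3.87 in replicate 1 of L*er* × Col and 0.54 to 1.87 elsewhere.

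*WRI1* (chr3:20114488-20118745, plus strand) was measured at 969 and 177 RPKM in the Col × L*er* libraries and at 265, 1564 and 318 RPKM in the L*er* × Col libraries, in the same order of replicates. The crosses overlapped, and the 2 libraries numbered replicate 2 were the highest, at ranks 66 and 60 of the 33602 rows. In these 2 libraries the seed coat markers summed to 173 and 164 RPKM, below the 373 to 428 RPKM of the others. One of them, *MUM4*, went against the sum, at 76.2 and 120 RPKM there and 38.4 to 66.5 RPKM in the others. *ZOU* reached 532 and 777 RPKM, above the 190 to 386 RPKM of the others. The sum of the other 12 endosperm markers was lower there in RPKM, at 261 and 135 against 270 to 467 in the others. The values 261 and 270 lay close together. The library at 135 RPKM had the lowest median RPKM of all rows, 0.952, and the lowest median-of-ratios factor, 0.426. After division by these factors both sums exceeded that of replicate 1 of L*er* × Col. The seed coat sum then became the highest in replicate 2 of L*er* × Col and stayed the lowest in replicate 2 of Col × L*er*. The part of these library differences in the *WRI1* values was not tested. The limma log2 difference between the crosses was -0.30 (SE 0.92, 95% interval -2.10 to 1.51, adjusted p = 1). Its sign turned without replicate 3 of Col × L*er* (0.93) and without replicate 2 of L*er* × Col (0.51). Between libraries of the same number the difference was -0.69 for number 2 and -0.84 for number 3. Replicate 2 exceeded replicate 3 by 2.45 log2 units in Col × L*er* and by 2.29 in L*er* × Col, more than in 99.2 and 99.8% of genes tested, while the median gene was lower by 0.73 and by 1.26. The same differences were 0.41 and -2.15 for *LEC1*, -0.39 and -2.32 for *FUS3*, 0.48 and -0.51 for *LEC2* and 1.55 and -0.05 for *ABI3*. For *L1L* replicate 2 exceeded replicate 3 in Col × L*er* by 1.64 and was the lower library in L*er* × Col.

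*WRI1* stood apart from the other regulators in its coding sequence too. Its most purine-rich 50 exonic bases, at chr3:20118028-20118077 on the plus strand (TAIR10.1), held 46 purines (92.0%), more than the richest window of 97.6% of protein-coding genes. The window is shown, with purines in capitals, because the difference between replicates varied with the purine content of genes, and that of *LEC2*, at chr1:9897289-9897338 on the minus strand with 84.0% purines, is given for comparison.
WRI1: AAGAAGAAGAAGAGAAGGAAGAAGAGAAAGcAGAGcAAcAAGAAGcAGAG
LEC2: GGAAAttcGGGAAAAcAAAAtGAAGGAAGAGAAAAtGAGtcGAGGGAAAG
Both lie in coding sequence. The richest window was 84.0% purine in *LEC1* and 76.0% in *ABI3*, *FUS3* and *L1L*. Over annotated genes of any type with a mean log2(RPKM + 1) above 3, the mean of the differences between replicates 2 and 3 in both crosses had a median of -0.57 for windows of up to 60% purine (112 genes), -1.13 up to 70% (1703 genes), -1.07 up to 80% (6630 genes), -0.78 up to 90% (3147 genes), 0.46 up to 95% (315 genes) and 0.96 above that (134 genes). The value of *WRI1* was 2.37, outside the quartiles of its class (-0.58 to 1.30). *RING1A* and *VAL1*, with windows of 98% purine, had differences of 1.60 and 1.18, but *ZOU* and *PKR1*, with windows of 88% purine, had differences of 1.45 and 0.86, far above the median of their class. This description was chosen after the values were seen, and the part of purine content in the *WRI1* values was not tested.

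**Figure D4:**
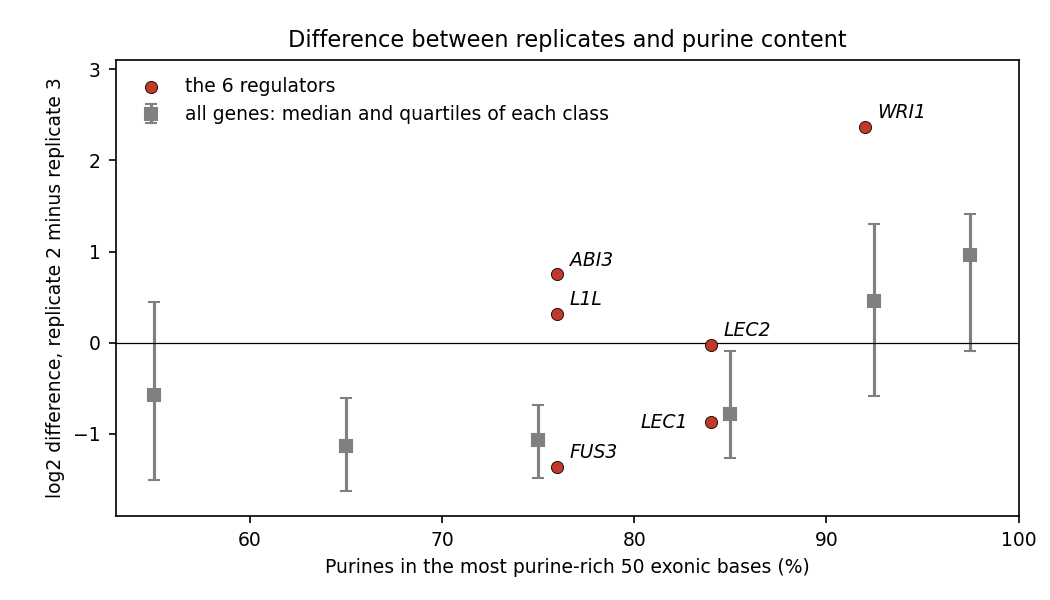
The log2 difference between replicate 2 and replicate 3, averaged over the crosses, against the percentage of purines in the most purine-rich 50 exonic bases. Grey squares with bars are medians and quartiles of annotated genes of any type with a mean log2(RPKM + 1) above 3 in each purine class. They are drawn at the middle of the class (the first, up to 60%, at 55%), and red points are the regulators. *WRI1*, at 92.0% and 2.37, lies above its class median of 0.46.

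In RPKM, genes of glycolysis and fatty acid synthesis on which WRI1 is known to act did not share its library pattern. The 21 genes summed to 1402 and 1399 RPKM in Col × L*er* and to 671, 522 and 1528 RPKM in L*er* × Col. The library with the most *WRI1* thus had the lowest sum, but also the lowest median RPKM of all rows, 0.952. The median-of-ratios factor was 0.426 in that library, and 1.27 to 1.46 in replicate 1 of L*er* × Col and both replicate 3 libraries. After division by these factors its sum was no longer the lowest. The 2 libraries with the most *WRI1* then had the 2 highest sums, so the opposition depended on the scaling. The sums were not compared after quantile normalization. None of the 21 passed the test, and 2 lay apart with Col × L*er* higher, a share near the 6.17% of all genes. Their median log2 difference was 0.79, and 20 of 21 were above 0, against 54.8% of all genes. Where 1 RPKM was required in every library, the median was 0.79 for the list and 0.37 for all genes. With median-of-ratios scaling these medians were 0.40 and -0.17, and with quantile normalization 0.39 and 0.02. *ACP1*, an acyl carrier protein, was measured at 199 and 191 RPKM in Col × L*er* and at 83.5, 84.6 and 254 RPKM in L*er* × Col. *KAR*, the ketoacyl reductase of plastid fatty acid synthesis, was measured at 191 and 194 RPKM and at 67.4, 82.2 and 218 RPKM. *SUS2*, a sucrose synthase and the lowest of the list, was measured at 0.381 to 2.68 RPKM. The related AP2 genes *WRI2*, *WRI4* and *WRI3* were measured at 10.7 to 47.6, 1.11 to 24.7 and 2.21 to 11.5 RPKM, and none passed the test. In RPKM each was lowest in replicate 2 of L*er* × Col, where *WRI1* was highest and the median RPKM of all rows, 0.952, was lowest. After division by the median-of-ratios factors only *WRI4* remained lowest there.

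The genes most like each regulator over the 5 libraries were found by the mean absolute difference between centred log2(RPKM + 1) values, among genes of similar level. With 5 libraries this is a description of shared library pattern. *LEC1* was closest to *RTE1* at 0.15 log2 units, against a median of 0.81 over 4273 candidates, and next to the transcribed pseudogene AT3G30214 at 0.23. *RTE1* was measured at 84.4 and 50.3 RPKM in Col × L*er* and at 9.68, 13.5 and 55.2 RPKM in L*er* × Col. *FUS3* was closest to AT2G05830 and AT5G05040, each at 0.11, *LEC2* to AT5G17780 at 0.07 and AT4G01790 at 0.08, and *L1L* to AT4G05475 at 0.10 and AT1G21000 at 0.20. *ABI3* was closest to the transcribed pseudogene AT3G44410 at 0.08 and to AT2G35380 at 0.09. *WRI1* had the fewest candidates, 221, and was closest to AT3G58660 at 0.24 and AT2G31410 at 0.27. AT2G31410 was measured at 853 and 262 RPKM in Col × L*er* and at 432, 1786 and 369 RPKM in L*er* × Col, highest in the same libraries as *WRI1*.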

How the data were processed

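Poly(A) RNA of INTACT-purified endosperm nuclei at 4 DAP was sequenced in 5 libraries. The authors deposited RPKM values per gene and library, with the alleles of both parents added. The submitters' processing notes name TopHat2 2.1 and the TAIR10 build. The program that counted reads and its strand setting are not given in the sources used here. All columns were matched to samples by their labels (0 columns were not assigned). Because RPKM values are not counts, limma 3.58.1 in R 4.3.3 was run on log2(RPKM + 1) with a variance trend over genes that reached 1 RPKM in 2 or more libraries, with calls at Benjamini-Hochberg adjusted p-values below 0.05. The fit was tested on simulated data with spreads set by hand. Depth was recovered from tRNA values under 20 reads, of which 96.8 to 98.5% were within 0.1 of whole reads. It was used to estimate reads per gene. The methods call the replicates biological, but the labels name no separate plantings, so p-values measure the spread between these libraries.

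Sequences, loci and gene names were read from the TAIR10.1 assembly of RefSeq, whose annotation matched 32835 rows. The regulators and lists were chosen with earlier results of these data known. Named genes were the 6 regulators, from each list the genes called or otherwise the 2 most abundant and the least abundant, and for each regulator the 2 genes of most similar pattern within 1 log2 unit of its mean level. Other genes are named only as markers, overlapping genes, or genes picked after their values were seen (*RING1A*, *VAL1*, *ZOU* and *PKR1* in the purine description). Alternatives were other pseudocounts, filters, scalings, the omission of each library, a replicate block and a fit without the variance trend. Scalings and omissions for groups that did not overlap, and other purine windows, were added after the data were seen.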

Additional observations from a re-analysis of the deposited data

How the results depend on the processing

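The number of genes called between the crosses, 2, became 7 with a pseudocount of 0.1, and 6 with a pseudocount of 5, without a filter, or when 1 RPKM was required in every library, a filter that *ABI3* did not pass. It became 0 with quantile normalization, median-of-ratios scaling or no variance trend, and ranged from 0 to 86 when single libraries were left out. The cause was not tested. With the replicate block it was 86, and 90 without replicate 1 of L*er* × Col as well; labels do not say that a number marks a shared batch, and across genes the differences between replicates 2 and 3 of the crosses had r = 0.29. A block by the numbers of the sample titles, which differ for Col × L*er*, called 2 genes and 0 maturation targets. The block gave *ABI3* a log2 difference of 0.61 (limma adjusted p = 0.949), 0.61 also without replicate 1 of L*er* × Col, and called 7 maturation targets, 4 without that library. It called none of the 6 regulators. With single libraries left out, *ABI3* ranged from -0.86 to 0.69, *WRI1* from -1.52 to 0.93 and *LEC1* from 1.29 to 2.66 (limma adjusted p from 0.0112 to 1), the called maturation targets from 0 to 2, and the level of *FUS3* minus *L1L* from 0.00 to 0.51. Over 15 alternatives *LEC1*, *L1L*, *FUS3* and *LEC2* kept their direction and stayed above the median of all genes, which itself moved between -0.34 and 0.46. *FUS3* alone lay apart between the crosses with median-of-ratios scaling (1 regulator), and 3 to 4 regulators did with single libraries left out, when 6.56 to 24.1% of all genes did. Without replicate 2 of Col × L*er*, *ABI3* and *WRI1* lay apart in the lower direction. With purine windows of 30 and 100 bases the class of *WRI1* had medians of 0.07 and 0.49. Values under about 100 estimated reads (*ABI3*, *FUS3*, *L1L*) limit what can be seen.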
